A study of Bos taurus with 15 samples.

Results

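Elastic fibres give the gut wall, blood vessels and glands their recoil. They consist of a core of cross-linked elastin laid down on a scaffold of fibrillin microfibrils, and they are made mainly around birth and turned over slowly afterwards. Fibrillin microfibrils also hold latent TGF-beta in the matrix, and in the gut they are laid down by fibroblasts, smooth muscle and the cells of vessel walls.

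The 7 genes described here were ELN, which encodes elastin (ENSBTAG00000019517), FBN1 and FBN2, which encode the fibrillins (ENSBTAG00000002278 and ENSBTAG00000015307), MFAP2 and MFAP5, which encode the small microfibril-associated glycoproteins that bind fibrillin (ENSBTAG00000003832 and ENSBTAG00000000310), MFAP4, which encodes an extracellular protein that binds elastin and fibrillin (ENSBTAG00000006187), and EMILIN1, which encodes a glycoprotein at the interface of elastin and microfibrils (ENSBTAG00000011324). They are 7 of the 27270 genes listed in the files and were found by symbol. The gene set was selected on earlier readings of newborn and adult levels in these same libraries, so every difference below is a description and none was tested.

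The libraries were 10x Chromium 3' single-cell RNA libraries of Holstein cattle, 11 from newborn calves (NB) and 4 from an adult (AD). The NB libraries were of the stomach compartments reticulum, omasum and abomasum, of the small intestine (duodenum, jejunum, ileum), of the large intestine (cecum, colon, rectum), and of the salivary gland and liver. The AD libraries were of the cecum, colon, duodenum and jejunum. The study used 3 newborn calves, and the sources used here do not name the calf behind a library. The adult tissues came from a single lactating cow. Each tissue and stage is 1 library, so no difference between stages has a replicate check. The outer muscle layers of the gut were cut away. The newborn gut was treated with EDTA and trypsin. The newborn stomach compartments then got collagenases, hyaluronidase and dispase. The newborn liver was treated with a collagenase and papain, and the newborn salivary gland with a collagenase and dispase, followed by red cell lysis. After EDTA and trypsin, the newborn intestine got the enzymes of a lamina propria kit. The adult duodenum and cecum were dissociated with a kit of that kind without the earlier steps, and the adult jejunum and colon with a multi-tissue kit, all followed by red cell lysis. Stage, animal and dissociation cannot be told apart in these data. Between newborn organs treated with different enzymes, organ and dissociation cannot be told apart either, and the calf is not known.

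Of 172405 deposited barcodes, 119798 passed the filters on genes, UMIs, mitochondrial share and doublets. Total UMIs per library ran from 17707625 to 129458578, and the median kept barcode held 3553 to 3913 UMIs in the adult libraries and 4410 to 8971 in the newborn ones. Libraries shared at most 36 barcodes. Barcodes were classed by a gene that had at least 2 UMIs and more UMIs than each of the other class genes: COL1A2 (a fibrillar collagen of fibroblasts), MYH11 (smooth muscle myosin), PECAM1 (an endothelial junction protein) and EPCAM (an epithelial adhesion protein), with PTPRC (CD45, of leukocytes) as the background class. Levels are given as CPM (counts scaled to a fixed total of the UMIs summed over a class), with exact Poisson 95% intervals that cover counting error only. A level was used where a class held at least 20 barcodes. UMIs were counted at transcript 3' ends and are not divided by gene length, so levels are compared between libraries and classes, not between genes.

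The marker check bore out most of the classes. The summed fibroblast list (COL1A1, COL3A1, DCN, LUM, PDGFRA) was at 9215 to 77179 CPM in NB COL1A2 barcodes and at 17476 in those of the AD colon. The smooth muscle list was at 5329 to 26022 CPM in NB MYH11 barcodes, which also held 1718 to 10316 CPM of the fibroblast list. The AD duodenum went against its class: its 30 PECAM1 barcodes held the endothelial list at 121 CPM, with ERG at 0, against 3212 and 3604 CPM in the AD jejunum and colon, and held JCHAIN, the joining chain of secreted antibodies, at 140435 CPM. JCHAIN was also at 40044 CPM in the AD jejunum and 22771 in the AD colon PECAM1 barcodes. The NB liver PECAM1 barcodes were likewise low for endothelial genes (219 CPM) and held the leukocyte list at 1473 CPM. These barcodes are therefore called by their class gene and not as endothelial cells.

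In newborn COL1A2 barcodes MFAP5 varied most widely from organ to organ, followed by FBN2 and ELN, while MFAP2 varied least and EMILIN1 was low throughout. The 10 newborn libraries with enough COL1A2 barcodes held 87 to 2279 of them. Of the NB liver there were only 7, and it is left out of these ranges.

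ELN was at 327.8 CPM in the jejunum, 357.9 in the duodenum, 396.4 in the ileum, 582.8 in the colon, 1347 in the rectum, 1471 in the cecum, 1632 in the abomasum, 1697 in the salivary gland, 1850 in the reticulum and 2981 in the omasum. The small intestine and colon were thus low and the stomach compartments, salivary gland, cecum and rectum high, a 9.09-fold range. The stomach compartments and salivary gland were dissociated with other enzymes than the intestine, which cannot be told apart from organ. The counting intervals of neighbours in this order overlapped among the 3 small intestinal libraries, and among the abomasum, salivary gland and reticulum. The Poisson intervals do not cover the uneven spread of ELN over barcodes. In the salivary gland 1 barcode held 387 of the 1015 ELN UMIs, so the place of that library in the order rests largely on it, and the highest count in 1 barcode was 1027 of 13040 UMIs in the cecum and 778 of 15629 in the rectum. PTPRC barcodes, in the 9 newborn libraries with enough of them, held ELN at a median of 7.19 CPM.

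FBN1, the main fibrillin of tissue after birth, was lowest in the jejunum (303.5 CPM) and colon (305.9), followed by the duodenum (348.9), ileum (386.1) and omasum (427.1), and reached 722.5 in the reticulum, 840.5 in the rectum, 981.9 in the cecum, 1018 in the abomasum and 1090 in the salivary gland. The omasum was highest of all for ELN but in the lower part of the order for FBN1. FBN2, the fibrillin known for its role in development, had its extremes elsewhere: the salivary gland was lowest at 26.7 CPM (16 UMIs) and the duodenum (394.5) and omasum (484) were highest. Between them FBN2 stood at 118 CPM in the ileum, 147.4 in the colon, 171.9 in the rectum, 185.8 in the cecum, 230.8 in the jejunum, 235.4 in the abomasum and 370.7 in the reticulum.

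The balance of the fibrillins therefore shifted between organs. FBN2 made up 53.1% of FBN1 plus FBN2 UMIs in the omasum (exact binomial 95% interval 48.7 to 57.5) and 53.1% in the duodenum (50.3 to 55.8), but 2.40% in the salivary gland (1.38 to 3.86), 15.9% in the cecum (15.2 to 16.6), 17.0% in the rectum (16.3 to 17.7) and 18.8% in the abomasum (17.5 to 20.1). The FBN2 share was larger in MYH11 than in COL1A2 barcodes of the duodenum (80.5%, 76.3 to 84.2), jejunum (68.7%, 65.0 to 72.4, against 43.2%) and ileum (76.7%, 70.8 to 81.9, against 23.4%). It was also larger in the abomasum (47.9% against 18.8%), colon (49.2% against 32.5%) and rectum (31.3% against 17.0%), with intervals apart in each. In the cecum the intervals overlapped, with FBN2 at 16.1% of MYH11 fibrillin UMIs (11.9 to 21.1), and in the reticulum it was 1 of 6 UMIs.

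MFAP2 spanned only 302 CPM in the jejunum to 564.3 in the cecum, a 1.87-fold range over 10 libraries. MFAP5 spanned 14.8 CPM in the jejunum to 1750 in the salivary gland, a 118-fold range, with 46.0 in the colon, 366.6 in the omasum, 395.1 in the duodenum, 588.2 in the ileum, 959.5 in the rectum, 1011 in the reticulum, 1220 in the abomasum and 1403 in the cecum. MFAP2 was accordingly 95.3% of MFAP2 plus MFAP5 UMIs in the jejunum (94.5 to 96.0) and 91.0% in the colon (88.4 to 93.1), and 22.2% in the salivary gland (20.0 to 24.5). MFAP4 ran from 81.5 CPM in the ileum to 519.6 in the omasum, with a median of 177.5. EMILIN1 was at 0 of 561961 UMIs in the omasum, where a floor of 3 counts is 5.34 CPM, and at 25.1 CPM in the jejunum, its highest newborn level.

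**Figure D1:**
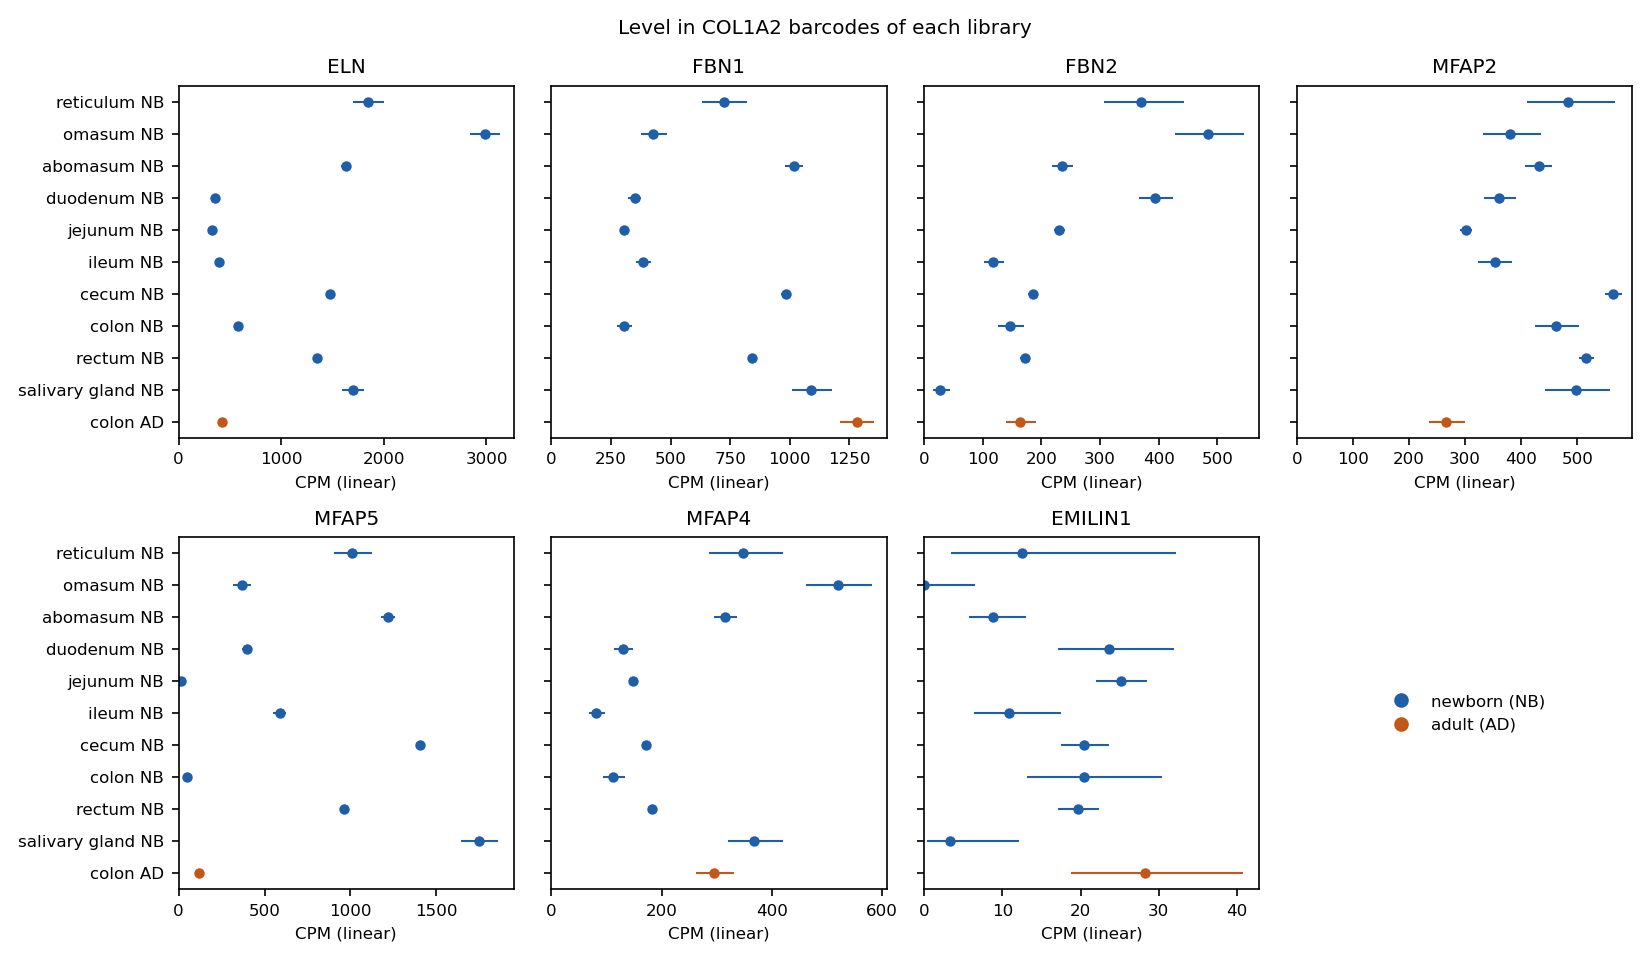
Level of each gene in COL1A2 barcodes of each library with at least 20 of them, in CPM on linear axes that differ between panels. Points are 1 library each with exact Poisson 95% intervals, blue for newborn and orange for adult. MFAP2 lies between 302 and 564.3 CPM in the newborn libraries, whereas MFAP5 lies between 14.8 and 1750.

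The genes were unevenly spread over barcodes within libraries. PI16 marks adventitial fibroblasts, those around vessels and in deeper connective tissue. Barcodes with at least 1 PI16 UMI made up 27.8% of COL1A2 barcodes in the NB abomasum, 35.6% in the salivary gland, 14.7% in the cecum, 9.68% in the reticulum, 9.58% in the rectum, 6.82% in the ileum, 5.91% in the duodenum, 2.29% in the colon, 2.17% in the omasum and 0.527% in the jejunum. These shares do not follow the ELN order throughout, since the omasum had the highest ELN level. They do follow the MFAP5 order, except that the cecum and abomasum change places, as do the omasum and colon. The part of PI16 barcodes in the organ ranges was not tested. In the 8 newborn libraries with at least 10 barcodes on both sides, MFAP5 was higher in barcodes with PI16 in 8 of 8, with intervals apart in 8 and a median ratio of 20.0 (range 2.03 to 127.9). In the cecum, MFAP5 was at 5092 CPM in 161 barcodes with PI16 and 320.6 in 934 without. ELN and FBN1 were also higher with PI16 in 8 of 8 libraries, by a median of 8.05-fold and 5.82-fold, and in the rectum ELN stood at 5872 against 548.9 CPM.

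FBN2 did not share that distribution. It was lower in barcodes with PI16 in the abomasum (23.3 against 315.3 CPM), duodenum (216.3 against 407.5), jejunum (53.7 against 231.9) and ileum (5.58 against 132.6), and higher in the cecum (321.6 against 145.9) and rectum (276 against 153.5). F3, tissue factor, marks fibroblasts close under the epithelium. In barcodes with an F3 UMI, FBN2 was higher with intervals apart in 7 of 10 newborn libraries, at 729 against 183.1 CPM in the duodenum and 443.3 against 122.6 in the jejunum, and lower with intervals apart in the reticulum and omasum. DPT, dermatopontin of the collagen matrix, divided ELN and FBN1 in the same direction as PI16 in 10 of 10 libraries. Barcodes with RGS5, a pericyte gene, held less ELN, FBN1, MFAP2 and MFAP5 than those without in 9 of 9. Barcodes with MKI67, a proliferation gene, held less MFAP2 in 4 of 4. Barcodes with a PI16 UMI were often deeper than those without, with medians of 12701 and 7321 UMIs in the cecum, but not in the abomasum (3524 and 3619). The part of depth in these splits was not tested.

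**Figure D2:**
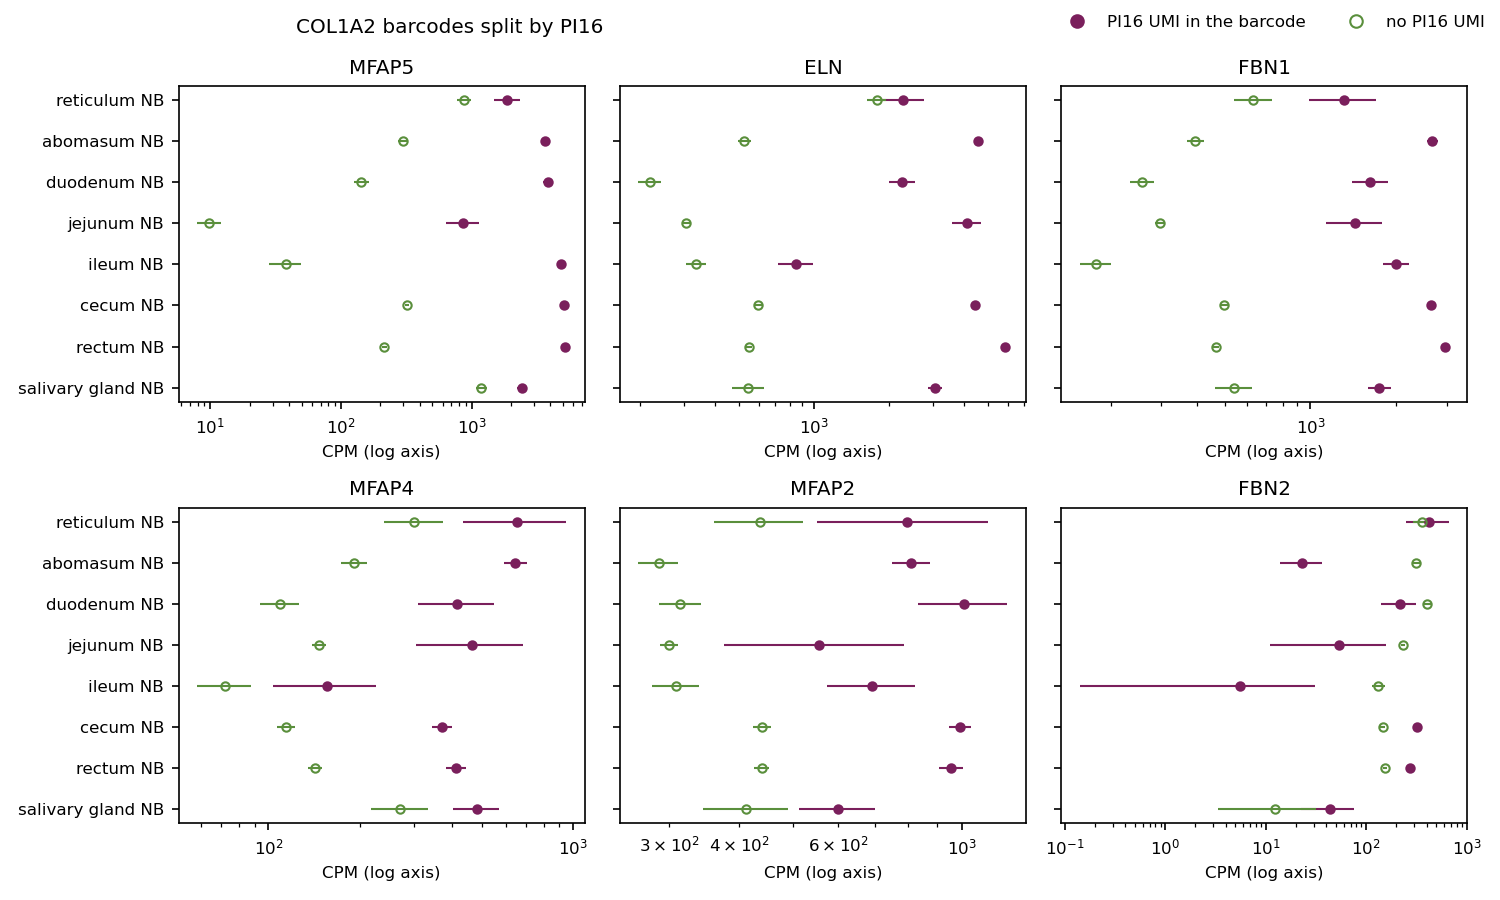
Levels of 6 of the genes in COL1A2 barcodes with a PI16 UMI (filled) and without (open), in CPM on log axes that differ between panels, for the 8 newborn libraries with at least 10 barcodes on both sides. Bars are exact Poisson 95% intervals, and MFAP5, ELN, FBN1, MFAP4 and MFAP2 lie to the right in barcodes with PI16 in every library shown, whereas FBN2 changes side between libraries.

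In MYH11 barcodes, used in 8 newborn libraries, ELN ran from 109.8 CPM in the ileum to 1212 in the reticulum, with 951.1 in the abomasum, 684.9 in the jejunum, 613 in the cecum, 553 in the rectum, 218.1 in the duodenum and 212.9 in the colon. In the jejunum ELN was thus higher in MYH11 barcodes (684.9) than in COL1A2 barcodes (327.8). MFAP4 ran from 16.4 CPM in the duodenum to 359.5 in the abomasum. MFAP5 was at 0 UMIs in the reticulum, duodenum, ileum and colon, at 1 UMI in the jejunum, and at 17.1 CPM in the cecum, 106.6 in the rectum and 144.4 in the abomasum. ACTG2, enteric smooth muscle actin, was used to divide these barcodes after their values were seen: ELN was higher with ACTG2 in 7 of 7 newborn libraries (intervals apart in 6, median 4.35-fold), and FBN2 lower in 7 of 7 (intervals apart in 5, median ratio 0.410).

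After the filters the colon was the only tissue with enough COL1A2 barcodes at both stages, 175 in NB and 127 in AD. The adult duodenum, jejunum and cecum had 2, 1 and 4. With doublets kept the jejunum also had enough at both stages, so its low adult count depends on the doublet step. Whether the adult jejunum barcodes removed there were true doublets was not tested. For the duodenum and cecum, whether the cells were fewer or less well recovered cannot be told apart. A gene counted as past the threshold where the ratio of (CPM + 5) was at least 2-fold and the Poisson intervals did not overlap, among genes whose mean over both libraries was at least 5 CPM. Shares of all genes called are over the genes that passed this minimum. In the colon all 7 genes passed it, and 3 of 7 genes were past it as higher in AD and 0 of 7 as higher in NB, where 8.53% and 6.72% of the 9705 genes compared were called in those directions. The rule that selected the genes used these same values, so nothing is read from the counts. Markers of other cells also differed between these barcodes. The smooth muscle list was at 1656 CPM in NB and 275.3 in AD, the endothelial list at 78.4 and 7.06, and the leukocyte list at 18.7 and 229.9. The pericyte list was at 1000 CPM in NB and 1036 in AD, the latter above all 10 newborn libraries. The part of these cells in the levels below was not tested.

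FBN1 was at 305.9 CPM (275.1 to 339.2) in the NB colon and 1280 CPM (1210 to 1352) in the AD colon, 4.18-fold higher in AD (95% interval of the ratio 3.72 to 4.72). The AD value lay above all 10 newborn libraries in COL1A2 barcodes. FBN1 had a UMI in 97.6% of AD and 66.9% of NB colon COL1A2 barcodes, and in 62.2% and 28.3% after each was thinned to 1000 UMIs (127 of 127 and 173 of 175 barcodes deep enough), against 0.185% and 1.77% of unthinned PTPRC barcodes. FBN1 was past the threshold in 21 of 21 alternative treatments of the colon data, including the comparisons within DPT, ADAMDEC1 or RGS5 subsets.

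MFAP4 was at 112.5 CPM (94.1 to 133.4) in NB and 295.5 (262.6 to 331.3) in AD, 2.63-fold higher. MFAP5 was at 46.0 CPM (34.6 to 60.0) in NB and 121 (100.3 to 144.7) in AD, also 2.63-fold, but the adult level remained below 8 of the 10 newborn libraries. Its NB level rested on few barcodes: 12 of 175 had a UMI, against 42 of 127 in AD, and 1 NB barcode held 13 of the 54 UMIs. The MFAP4 and MFAP5 calls depended on which barcodes were compared. RGS5 was present in 103 of the 127 AD COL1A2 barcodes and 89 of the 175 NB ones. DPT was present in 91 of the AD and 67 of the NB ones. In newborn libraries MFAP4 was higher in barcodes with DPT in 10 of 10, and MFAP5 in 9 of 10. The part of these unequal shares in the calls was not tested. Without RGS5 barcodes MFAP5 was 98.0 CPM in NB and 178.2 in AD on 24 adult barcodes and was not past the threshold (log2 ratio -0.83). Without DPT barcodes it was 59.6 in NB and 22.4 in AD, so that the direction turned (log2 ratio 1.24). MFAP4 was not past the threshold without DPT barcodes (-0.13) or with each barcode weighted equally (-0.96). Neither gene was past it after thinning (MFAP5 -0.85, MFAP4 -0.53) or with barcodes of any other class gene left out (-0.11 and -0.97).

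The other 4 genes were not past the threshold. ELN was at 582.8 CPM in NB and 420.5 in AD, 1.39-fold higher in NB (1.23 to 1.57), and was past the threshold as higher in NB in 4 of 21 alternatives, with barcodes of any other class gene left out (log2 ratio 1.68), without RGS5 barcodes (1.22), without DPT barcodes and after thinning. Among barcodes with ADAMDEC1 the direction turned (log2 ratio -0.21, not past the threshold). The NB level rested on few barcodes: the 18 of 175 with most ELN held 78.4% of its UMIs in NB and the 13 of 127 with most held 29.0% in AD, while ELN had a UMI in 57.1% of NB and 80.3% of AD barcodes. MFAP2 was at 462.6 and 266.2 CPM, 1.74-fold higher in NB (1.50 to 2.02), and was past the threshold as higher in NB without RGS5 barcodes (log2 ratio 1.60) and at a 1.5-fold threshold. FBN2 was at 147.4 and 164.4 CPM, a ratio of 0.897 (0.720 to 1.12), and EMILIN1 at 20.5 and 28.2 CPM, a ratio of 0.724 (0.402 to 1.30). The intervals of FBN2 and EMILIN1 include equality. FBN2 was past the threshold in opposite directions when subsets were left out, as higher in NB without RGS5 barcodes (log2 ratio 1.93) and as higher in AD without DPT barcodes (-1.09). Among fibrillin UMIs the FBN2 share was 32.5% (28.6 to 36.7) in NB and 11.4% (9.78 to 13.1) in AD, and the MFAP2 share of MFAP2 plus MFAP5 UMIs was 91.0% in NB and 68.8% (63.9 to 73.4) in AD. Both paired shares were thus lower in the adult than in the newborn colon. The adult MFAP2 share still lay above that of every newborn library but the jejunum and colon. The adult FBN2 share lay below that of every newborn library but the salivary gland.

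The F3 split was also made in the adult colon. There FBN2 stood at 336.5 CPM with F3 and 50.3 without, a 6.69-fold ratio, against 204.4 and 127.1 CPM in the NB colon, a 1.61-fold ratio, and ratios of up to 5.10 in the other newborn libraries. ELN was at 1083 CPM with F3 and 404.4 without in the NB colon, and at 283.4 and 511.4 in the AD colon, but it was lower with F3, with intervals apart, in 6 of the 10 newborn libraries too. Whether these splits differ between stages was not tested. FBN1 was higher in AD on both sides of the DPT split: its level in barcodes with DPT was 350.5 CPM in NB and 1476 in AD, and in barcodes without DPT 268.3 and 604.4.

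The MYH11 barcodes of the colon (38 in NB, 48 in AD) had 1 gene past the threshold as higher in NB and 0 as higher in AD, of the 6 of 7 that passed the minimum, where 2.47% and 4.56% of all genes compared were. MFAP2 was at 421.8 CPM in NB and 192 in AD, 2.20-fold higher in NB (1.58 to 3.08). FBN1 was at 253.1 and 488.2 CPM, 1.93-fold higher in AD (1.43 to 2.63) and just short of the threshold, and ELN, FBN2, MFAP4 and EMILIN1 had ratios whose intervals include equality. MFAP5 had 0 UMIs in both. Across all genes the median log2 ratio of NB to AD was -0.18 in this comparison and -0.01 in COL1A2 barcodes, so the genes of MYH11 barcodes are read against a small offset towards AD. MFAP2 was not past the threshold when barcodes with over 4000 genes were kept. Leukocyte markers summed to 494.7 CPM in AD MYH11 barcodes and at most 184.8 in NB ones, and their part in the result was not tested.

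**Figure D3:**
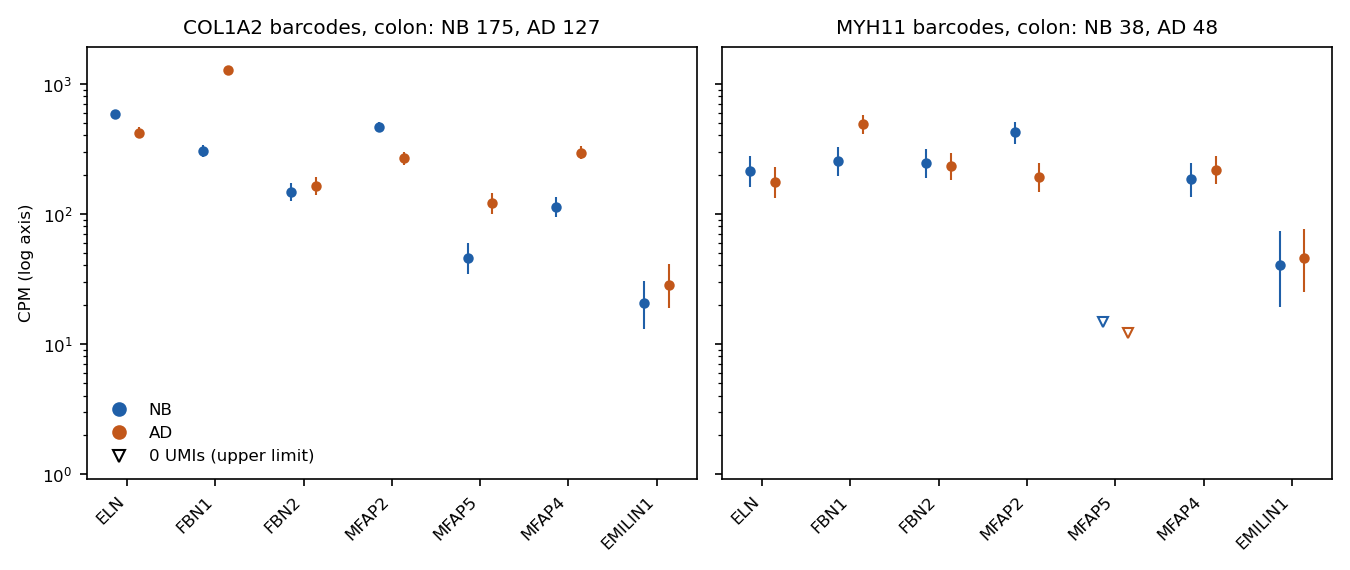
Levels of the 7 genes in COL1A2 barcodes (left) and MYH11 barcodes (right) of the NB colon (blue) and AD colon (orange), in CPM on a log axis. Points are 1 library each with exact Poisson 95% intervals, and open triangles give the upper limit where no UMI was counted. FBN1 is at 305.9 CPM in NB and 1280 in AD in COL1A2 barcodes, while MFAP2 is higher in NB in both classes.

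The wider pathway list held 58 genes, of which 57 are in the files and 42 were measured in the colon COL1A2 comparison. It was drawn up with earlier results of these data known. Of the 42, 13 were past the threshold as higher in AD and 1 as higher in NB, beside 8.53% and 6.72% of all genes, with a median log2 ratio of -0.54 against -0.01 over all genes. The 8 with the smallest log2 ratio were as follows. Among the fibulins, which link elastin to microfibrils and basement membrane, HMCN1 was at 5.11 CPM in NB and 67.6 in AD, FBLN2 at 40.9 and 242, and FBLN1 at 344.2 and 1607. FN1, fibronectin, on which fibrillin assembly starts, was at 704.6 in NB and 3739 in AD, and VCAN, the versican proteoglycan, at 211.3 and 856.1.

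CTSL, a lysosomal protease, had 0 UMIs in NB and stood at 18.15 CPM in AD, and CTSS, an elastin-cutting cathepsin that macrophages also make, was at 85.2 in NB and 301.5 in AD. LOX, the lysyl oxidase that cross-links elastin, was at 11.9 CPM in NB and 40.3 in AD. The leukocyte list was higher in AD than in NB colon COL1A2 barcodes, as given above, and its part in these levels was not tested. By group, 3 of 7 fibulins, 1 of 4 measured lysyl oxidases, 3 of 5 proteases, 1 of 5 integrins and 4 of 6 proteoglycans and glycoproteins were higher in AD. Of the 2 TIMP inhibitors TIMP2 was higher in AD and TIMP3 in NB, the latter at 218.1 against 87.7 CPM.

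None of 4 latent TGF-beta binding proteins, 2 TGF-beta ligands, 4 ADAMTS and ADAMTSL genes, 2 other microfibril genes and 1 emilin was past the threshold. LTBP1, LTBP3 and LTBP4, which tether latent TGF-beta to fibrillin, had log2 ratios of NB to AD of -0.91, -0.88 and -0.99, with LTBP4 at 173 CPM in NB and 347.9 in AD. Of the interstitial collagens, COL14A1 was higher in AD (17.0 against 61.5 CPM), and COL1A1, COL3A1, COL5A1 and COL6A1 were not past the threshold. In MYH11 barcodes 8 of 41 measured pathway genes were higher in AD and 1 in NB, beside 4.56% and 2.47% of all genes. In PECAM1 barcodes 30 were measured, of which 8 were higher in NB and 1 in AD in the colon (beside 3.96% and 4% of the genes compared), 3 and 2 in the jejunum (5.47% and 5.97%) and 17 and 0 in the duodenum (31.5% and 5.99%). In EPCAM barcodes 0 of 8 were higher in NB and 1 in AD in the duodenum (beside 6.88% and 21.2% of the genes compared). In the jejunum 1 of 8 and 1 were (5.43% and 15.1%), in the cecum 3 of 12 and 1 (4.67% and 7.8%) and in the colon 1 of 10 and 3 (3.93% and 16.3%). The 3 of the cecum were DCN, LUM and FN1, and the fibroblast list was also higher in NB there, as given below.

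In PECAM1 barcodes ELN, FBN1 and MFAP2 were measured, FBN2, MFAP4 and EMILIN1 were at or under 2.33 CPM in the newborn libraries, and MFAP5 at or under 5.41 outside the cecum (21.1). ELN ran from 57.6 CPM in the NB liver to 1425 in the cecum, with 525.9 in the abomasum, 274.3 in the rectum, 241.6 in the reticulum, 234.3 in the colon, 202.6 in the ileum, 182.6 in the duodenum, 121.7 in the jejunum and 91.4 in the omasum. FBN1 was between 98.1 CPM in the omasum and 256.9 in the cecum outside the liver, where it was 18.5. MFAP2 was between 34.4 CPM in the rectum and 90.9 in the ileum outside the liver, where it was 5.73. ELN was thus the widest-ranging of the 3, and the cecum stood above the next library, the abomasum, with intervals apart.

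The ELN level differed between barcodes with genes of different vessel types. The splitting genes here were chosen after values were seen: GJA5, a connexin of arteries, PROX1, a transcription factor of lymphatic vessels, and ACKR1, a chemokine receptor of venules. ELN was higher in barcodes with GJA5 in 9 of 9 newborn libraries, with intervals apart in 9, at 5714 against 730.4 CPM in the cecum and 3714 against 301.8 in the abomasum. It was higher with PROX1 in 6 of 6, at 1214 against 110.7 CPM in the duodenum, and lower with ACKR1 in 9 of 9 (intervals apart in 7). FBN1 was higher with GJA5 in 9 of 9 libraries, at 750.1 against 148.9 CPM in the duodenum, but with PROX1 in 3 of 6. MFAP2 ran differently: it was higher with ACKR1 in 8 of 9, at 119.2 against 46.7 CPM in the jejunum, and lower with PROX1 in 6 of 6 (intervals apart in 5). EMILIN1, otherwise near 0 in this class, was higher with PROX1 in 6 of 6 with intervals apart in 4, at 9.915 against 0.221 CPM in the jejunum (8 and 3 UMIs).

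**Figure D4:**
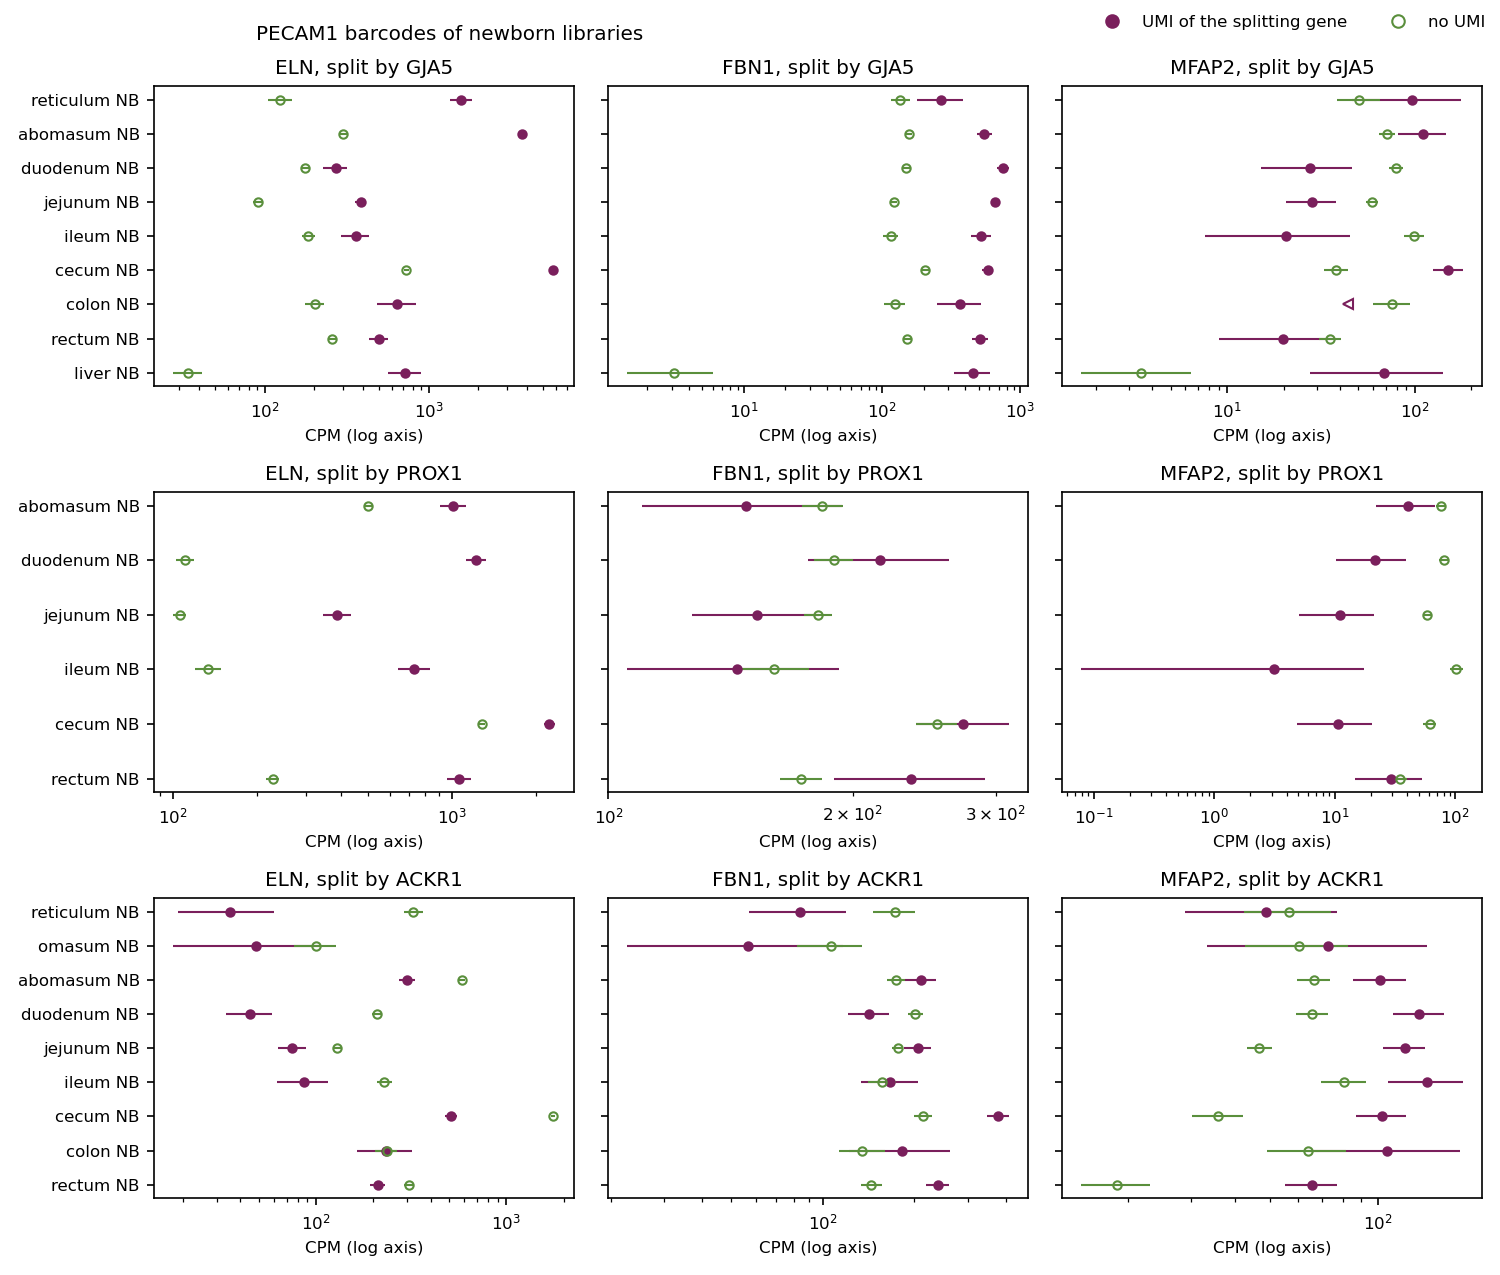
ELN, FBN1 and MFAP2 in PECAM1 barcodes of newborn libraries, with (filled) and without (open) a UMI of GJA5, PROX1 or ACKR1, in CPM on log axes that differ between panels, with exact Poisson 95% intervals (an open triangle is an upper limit). ELN lies to the right with GJA5 and PROX1 and to the left with ACKR1 in every library shown (by little in the colon), whereas MFAP2 lies to the left with PROX1.

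Newborn and adult PECAM1 barcodes were compared in 3 tissues. In each, 3 of the 7 genes (ELN, FBN1 and MFAP2) passed the minimum of 5 CPM. In the jejunum (2268 NB, 55 AD) 2 of these 3 were past the threshold as higher in NB and 0 as higher in AD, beside 5.47% and 5.97% of the genes compared. FBN1 was at 179.6 CPM in NB and 66.7 in AD, 2.70-fold higher in NB (1.85 to 4.10), and MFAP2 at 55.9 and 19.8 CPM, 2.83-fold higher in NB (1.43 to 6.57). Vessel types were not matched: GJA5, the artery gene, had a UMI in 222 NB and 0 AD barcodes, and ACKR1, the venule gene, in 226 and 0. NB barcodes without GJA5 held FBN1 at 122.7 CPM, and those without ACKR1 held MFAP2 at 46.7. Each gene is given for only that split, and the part of vessel types in these differences was not tested. Neither was past the threshold after thinning to 1000 UMIs (log2 ratios 0.71 and 1.47). ELN was at 121.7 and 103.7 CPM and its ratio interval (0.865 to 1.63) includes equality, but it was past the threshold as higher in NB when 1 UMI of PECAM1 sufficed (log2 ratio 1.79).

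In the colon (131 NB, 33 AD) 1 of the 3 was higher in NB and 0 in AD, beside 3.96% and 4% of the genes compared. ELN was at 234.3 CPM in NB and 18.2 in AD (5 UMIs), 12.9-fold higher in NB (5.46 to 40.1). Vessel types were not matched here either: the lymphatic list was at 676.4 CPM in the NB colon and 14.5 in the AD colon, with PROX1, CCL21, LYVE1 and MMRN1 at 0 in AD, against 1285 and 2032 CPM in the NB and AD jejunum. GJA5 had a UMI in 11 NB and 0 AD colon barcodes, PROX1 in 4 and 0, and ACKR1 in 16 and 5. The 14 NB barcodes with most ELN held 69.8% of its UMIs. The part of these differences in the ELN result was not tested. FBN1 was at 141.5 and 192.5 CPM and MFAP2 at 69.9 and 32.7 CPM, the latter 2.14-fold higher in NB but past the threshold only when 1 UMI of PECAM1 sufficed (log2 ratio 1.82).

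In the duodenum (1166 NB, 30 AD) ELN, FBN1 and MFAP2 were at 182.6, 191.4 and 76.1 CPM in NB and at 0 UMIs in AD. Against a floor of 3 counts they were 18.55-fold, 19.45-fold and 7.73-fold higher in NB. The upper Poisson limit in AD was 12.1 CPM for each. Of the genes compared, 31.5% were called higher in NB and 5.99% in AD. As the AD duodenum barcodes held few endothelial markers, the count over PECAM1 comparisons is given as 6 of 9 with the duodenum and 3 of 6 without it. The genes were selected on these same values, and in the duodenum each passed the minimum only through its NB level. Nothing is therefore read from these counts.

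In newborn EPCAM barcodes MFAP2 stood above the background class in the intestine and liver. MFAP2 was at 118.4 CPM (111.5 to 125.7) in the NB colon, 107.7 (99.1 to 116.8) in the ileum, 103.6 (100.4 to 106.8) in the duodenum and 71.6 (66.7 to 76.8) in the jejunum. It was at 65.4 CPM (49.9 to 84.1) in the liver, 31.0 in the reticulum, 30.4 in the omasum, 17.2 in the cecum and 12.9 in the rectum. It was at 1.12 CPM in the abomasum, and at 1 UMI in 22 salivary gland barcodes. The colon level thus lay with the small intestine, and those of the cecum and rectum lay far below it with intervals apart. The makeup of these barcodes differed. In the NB colon, cecum and rectum, AQP8 had a UMI in 10.5%, 44.4% and 42.95%, and CA1 in 13.3%, 6.18% and 31.97%, both genes of surface colonocytes. FABP2, an absorptive cell gene, had one in 19.8%, 0% and 0.328%, and OLFM4, a crypt base gene, in 79.9%, 76.1% and 90%. The part of this makeup in the organ order was not tested. PTPRC barcodes held MFAP2 at 1.25 to 5.59 CPM in the 9 newborn libraries with enough of them. The reticulum and omasum, with 7 and 6 PTPRC barcodes, have no background level, and the abomasum was not above it. MFAP2 had a UMI in 50.4% of NB colon EPCAM barcodes and 2.88% of NB colon PTPRC barcodes, at median depths of 13958 and 6284 UMIs.

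The adult epithelium held no MFAP2 UMI in any of 4 tissues: 0 in 31 duodenum, 205 jejunum, 309 cecum and 174 colon EPCAM barcodes. A floor of 3 counts is 12.4, 1.30, 0.718 and 1.49 CPM there, and the upper Poisson limits are 15.2, 1.60, 0.883 and 1.83 CPM. Against that floor NB was 8.38-fold higher in the duodenum, 55.1-fold in the jejunum, 23.95-fold in the cecum and 79.5-fold in the colon. Ratios to the upper limits would be lower. In each of the 4 tissues MFAP2 was past the threshold as higher in NB, though after thinning to 1000 UMIs not in the duodenum (log2 ratio 4.30) or cecum (1.73). Of the 7 genes it alone passed the minimum of 5 CPM in the duodenum, jejunum and colon, and with ELN in the cecum. Each passed through its NB level, so the counts are no support for a difference. The shares of the genes compared called as higher in NB and in AD were 6.88% and 21.2% in the duodenum, 5.43% and 15.1% in the jejunum, 3.93% and 16.3% in the colon, and 4.67% and 7.8% in the cecum. Fibroblast markers also differed between these barcodes: the summed list was at 7.77 CPM in NB and 0 in AD in the duodenum, 42.0 and 0.433 in the jejunum, 88.0 and 0 in the cecum, and 8.67 and 2.48 in the colon. MFAP2 alone was above the whole list in the NB duodenum, jejunum and colon and below it in the cecum.

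In the cecum ELN was also past the threshold as higher in NB, at 17.2 CPM in NB EPCAM barcodes against 19.4 in NB PTPRC barcodes, so no level above the background class was seen. The median log2 ratio over all genes lay between -0.38 and -0.20 in the 4 EPCAM comparisons, opposite in sign to MFAP2. The makeup of the epithelial barcodes differed between stages, and not in the same way in each tissue. FABP2, an absorptive cell gene, had a UMI in 19.8% of NB and 62.6% of AD colon EPCAM barcodes, and in 0% and 59.55% in the cecum. In the duodenum it had one in 93.9% of NB and 19.35% of AD barcodes, and in the jejunum in 78.1% and 34.15%. OLFM4, a crypt base gene, had one in 79.9% and 37.4% in the colon and 76.1% and 60.8% in the cecum. It had one in 21.7% and 6.45% in the duodenum and 26.0% and 11.7% in the jejunum. The part of this makeup in the MFAP2 result was not tested.

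Within newborn epithelium the distribution of MFAP2 differed by organ, over genes chosen after values were seen. In the colon it was higher in barcodes with OLFM4 at 131.4 against 51.8 CPM, and lower in those with CA1 (21.5 against 133.2) or AQP8 (27.6 against 128.5), genes of surface colonocytes. In the duodenum barcodes with and without OLFM4 were close, at 96.8 and 105.6 CPM, and those with KRT20, a gene of differentiated cells, were at 107.8 against 85.8. In the reticulum and omasum MFAP2 was lower in barcodes with IVL, involucrin of the outer layers, at 13.0 against 34.6 and 8.11 against 38.8 CPM. FBN2 was at 22.5 CPM in reticulum and 13.8 in omasum EPCAM barcodes, and at or under 1.27 CPM in the EPCAM barcodes of the newborn abomasum and intestine. The 22 salivary gland barcodes held 5 FBN2 and 4 FBN1 UMIs (29.3 and 23.4 CPM).

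**Figure D5:**
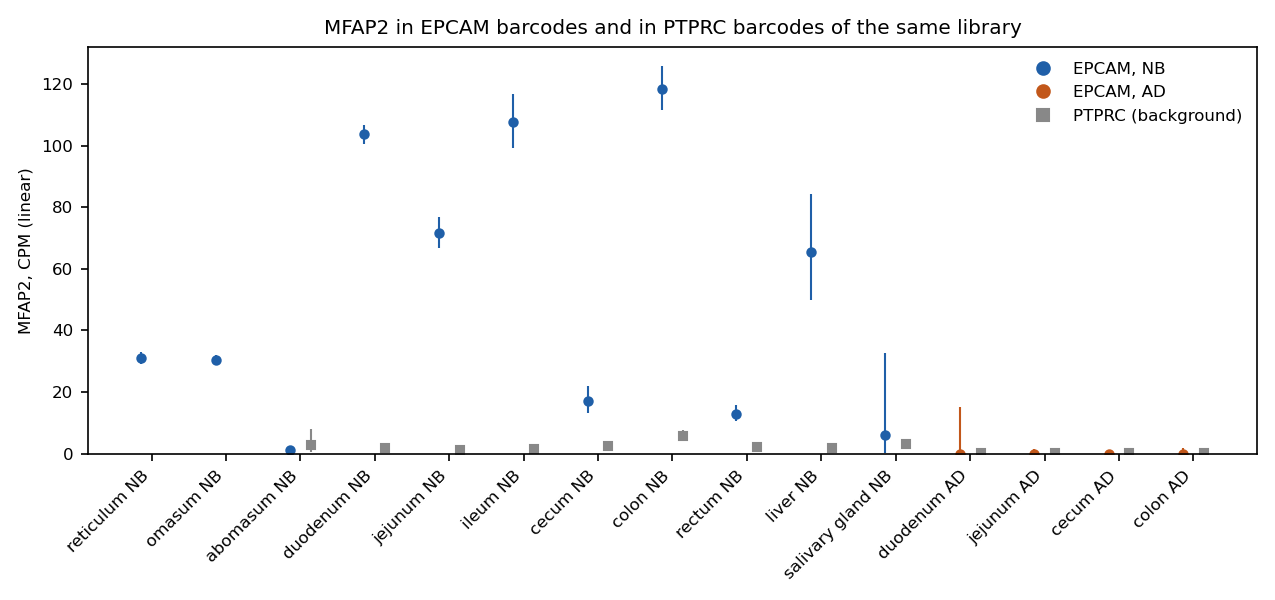
MFAP2 in EPCAM barcodes of each library (circles, blue newborn, orange adult) and in PTPRC barcodes of the same library where at least 20 were kept (grey squares), in CPM on a linear axis with exact Poisson 95% intervals. The NB colon, ileum and duodenum lie above 100 CPM, and the 4 adult libraries lie at 0.

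In the newborn liver MFAP2 was enriched in a small set of barcodes but not confined to it. STOML3, a stomatin family membrane protein, had at least 1 UMI in 68 of 11423 kept liver barcodes. MFAP2 was at 233 CPM (193.5 to 278.2) in these and 2.83 (2.44 to 3.27) in the other 11355, and had a UMI in 64.7% and 1.40% of them. The others still held more of its UMIs, 188 against 122. Median depths were 7120 UMIs with STOML3 and 4385 without. FBN1 was at 40.1 and 1.27 CPM, but its 21 UMIs came from 2 barcodes. FBN2, MFAP5, MFAP4 and EMILIN1 had 0 UMIs in the STOML3 barcodes. The study names MFAP2 among the genes that mark these cells, so the MFAP2 level is no independent result.

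Over 48 profiles of library and class, Spearman's rho of log2(CPM + 5) named the genes most like each member among 10258 genes. The profiles share libraries and are ordered largely by class, so the values are given without a test. ELN was most like CCDC80 (0.92), THY1 and RECK, FBN1 most like RECK (0.93), POFUT2 and ANGPTL2, and FBN2 most like EFEMP1 (0.93), DSEL and PTGES. MFAP2 was most like RCN1 (0.89), SELENOM and GPX7, MFAP5 like MMP16 (0.90), PI16 and TNXB, MFAP4 like COL1A1 (0.91), ASPN and COL1A2, and EMILIN1 like ALDH1A2 (0.90), PRR16 and BMP5. No member had another member among its closest 3.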

How the data were processed

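Single-cell RNA was measured in 15 libraries. The authors aligned reads to ARS-UCD1.2 with Cell Ranger 3.1.0 and deposited, per the labels and the study's methods, gene by barcode matrices of raw UMI counts, with no normalization. The members and all gene lists were chosen with earlier results of these data known. Barcodes were kept that had fewer than 50000 UMIs, a mitochondrial share below 40% and between 500 and 4000 genes detected, after which the highest Scrublet doublet scores (scanpy 1.11.5) were removed at 0.8% per 1000 barcodes, leaving 119798 of 172405. The study states other doublet software, so its cell set may differ. Classes, CPM and the threshold (2-fold on CPM + 5 with intervals apart, mean of both groups of at least 5 CPM) were computed in Python 3.11.15 with SciPy 1.17.1. With 1 library per tissue and stage there is no test. Intervals cover counting error only, as do floors of 3 counts. The calling step was tested on simulated data. The genes that split COL1A2 barcodes in a description, and STOML3, were planned, whereas those splitting MYH11, PECAM1, EPCAM and PTPRC barcodes were added after values were seen. Named pathway genes were the 8 with the largest log2 ratio per direction among those past the threshold. Genes most like a member were the 3 with the highest Spearman's rho. Alternatives changed the class rule, filters, doublets, CPM denominator, scaling, weights, depth, background, pseudocount, fold and minimum of barcodes. Gene positions and sequences were not used here.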

Additional observations from a re-analysis of the deposited data

Results flagged for a closer look

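PTPRC barcodes, the background class, were used in the report only as a reference level. In 11 newborn cases a gene was there at 5 CPM or more, with its lower counting limit above the upper limit of every adult library. Lower newborn levels can also lie above the adult limits and are not listed. ELN was at 10.89 CPM in the abomasum, 6.88 in the duodenum, 5.31 in the jejunum, 19.35 in the cecum, 32.9 in the rectum, 31.5 in the liver and 7.19 in the salivary gland, where the highest adult level was 0.734 CPM with an upper limit of 1.12. FBN1 was at 5.09 CPM in the cecum and 6.27 in the rectum against at most 0.466 in adult libraries. MFAP2 was at 5.59 CPM in the colon (43 UMIs) and MFAP5 at 6.35 in the abomasum (7 UMIs). The part of free RNA in these levels was not tested.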

How the results depend on the processing

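Of 142 counts of genes past the threshold under an alternative, 121 stayed within 1.5 times the reported count. The genes higher in NB in COL1A2 barcodes (0 reported) were 1 when barcodes with any other class gene were left out, 1 after thinning to 1000 UMIs, 1 at 1.5-fold, 1 without DPT barcodes, 3 without RGS5 barcodes and 2 with doublets kept, which added the jejunum. Those higher in AD (3 reported) were 1 with other class genes left out, 1 after thinning and 1 at 4-fold. In MYH11 barcodes the genes higher in NB (1 reported) were 6 when 1 UMI of the class gene sufficed, 0 with no upper limit on genes and 0 at 4-fold, and those higher in AD (0 reported) were 1 at 1.5-fold. In PECAM1 barcodes those higher in NB (6 reported) were 12 at 1 UMI, 1 at 5 UMIs, 3 after thinning, 2 with at least 50 barcodes and 3 without the duodenum. In EPCAM barcodes those higher in NB (5 reported) were 13 at 1 UMI and 3 after thinning, and those higher in AD (0 reported) were 1 at 1 UMI. The tissues with enough barcodes, and so the number of comparisons, can change with the setting. Shares of all genes called were not worked out under the alternatives, so nothing is read from these counts. Single-gene log2 ratios were tallied for the 7 genes in colon COL1A2 barcodes and for MFAP2 in EPCAM barcodes, 213 in all. Of these, 11 that were past the threshold no longer were, and 7 that were not past it became so in the same direction. Another 10 not past it moved beyond their interval. Among the 10, FBN2 without RGS5 barcodes became past it in the opposite direction (1.93 against -0.15). Of those past it 1 reversed, MFAP5 without DPT barcodes (1.24 against -1.31). Ratios in MYH11 and PECAM1 barcodes are not in this tally, and some calls there were also lost under alternatives. The causes were not tested. The repeats of the colon comparison within DPT, ADAMDEC1 and RGS5 subsets and the omission of the duodenum were added after seeing the data. With at least 50 barcodes no MYH11 pair was left. No paired analysis was possible because no result comes from a test: each tissue and stage is 1 library, and tissues were not used as replicates of a stage.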

Other observations

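Within PTPRC barcodes ELN was unevenly spread. With S100A8, a neutrophil and monocyte gene chosen after values were seen, ELN was higher in 6 of 7 newborn libraries with intervals apart, at 76.4 against 7.46 CPM in the liver, 90.5 against 23.4 in the rectum, 71.0 against 18.1 in the cecum and 38.1 against 3.23 in the colon. The ileum had 0 ELN UMIs in 14 such barcodes. In the AD jejunum ELN was at 23.05 CPM in 36 barcodes with S100A8 (8 UMIs) and 0.460 in 4339 without.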
